A study of Mus musculus with 14 samples.

Results

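Toll-like receptors are the membrane sensors with which cells detect microbial products and the debris of damaged tissue. The members described here are the 9 Toll-like receptor genes Tlr1, Tlr2, Tlr3, Tlr4, Tlr6, Tlr7, Tlr8, Tlr9 and Tlr13 together with Cd14, the co-receptor that hands lipopolysaccharide to the Tlr4 complex. They were chosen by gene name, as 10 of the 55487 genes counted in each library, and each of the 10 was found. Tlr2 pairs with Tlr1 or Tlr6 at the cell surface and binds bacterial lipopeptides, and Tlr4 with its partner Ly96 (MD-2) binds lipopolysaccharide. Tlr3, Tlr7, Tlr8, Tlr9 and Tlr13 are carried to endosomes by the chaperone Unc93b1 and read double-stranded RNA (Tlr3), single-stranded RNA (Tlr7 and Tlr8), unmethylated CpG DNA (Tlr9) and bacterial ribosomal RNA (Tlr13). Nearly all of them signal through Myd88, the adaptor that also serves the IL-1 receptor, while Tlr3 uses Ticam1 (TRIF), so the receptors and IL-1 share their downstream route. In marrow they are known mainly from macrophages, monocytes, dendritic cells and neutrophils, and stem and progenitor cells also carry some of them.

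Libraries of 3 populations were compared under PBS (vehicle) and IL-1β. LSK cells (Lin- Sca1+ c-kit+, enriched for stem and multipotent progenitor cells) and LK cells (Lin- c-kit+, myeloid progenitors, labelled MP(LK)) were sorted from marrow that carried 1 heterozygous Jak2V617F allele, the activating mutation of myeloproliferative neoplasms, expressed after pI-pC induction of Mx1Cre and transplanted into lethally irradiated C57BL/6 recipients. Both treatment groups carried the mutation, and the recipients received PBS or 0.5 μg IL-1β in 3 intraperitoneal doses per week for 16 weeks, with 3 PBS and 2 IL-1β libraries per population. MSC (bone marrow mesenchymal stromal cells) were grown from wild-type C57BL/6 marrow for 21 days and exposed to PBS or 5 ng/ml IL-1β for 72 h, with 2 libraries each (PBS replicates 2 and 3, IL-1β replicates 1 and 2). Neither the age nor the sex of the mice is in the labels, Mx1Cre acts in many blood and non-blood cells, and transplanted recipients keep some cells of their own. The labels do not say whether replicates of a treatment were separate mice or cultures, so the p-values measure the spread between these libraries.

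Library totals ran from 4393233 to 30871055 counted read pairs, and the shallowest sorted library was LSK IL-1β replicate 2. LSK PBS replicate 2 stood apart from its group, with 2267 and 2409 of 12426 genes over 2-fold from replicates 1 and 3, against 492 between those. By this measure the MSC IL-1β libraries were the most alike of all replicate pairs, with 9 of 12679 genes over 2-fold apart, and still differed by more than sampling noise (chi-square of 6.80 per degree of freedom over their counts), so they were kept as 2. Levels are given as CPM (a gene's share of the library in counts per 1000000, after TMM scaling within a population) and, between genes or populations, as RPKM (per kilobase of exon, TMM over the 14 libraries). Calls required an adjusted p under 0.05 (edgeR's quasi-likelihood test, Benjamini-Hochberg over all genes tested) together with a log2 fold change above 0.5 in size. The labels were checked against marker genes. The 6 stem and progenitor markers were detected in LSK and LK libraries under either treatment. Detection alone does not separate the labels, since of the 6 only Flt3 had 0 counts in the MSC libraries. Under PBS all 6 were called lower in LK than in LSK cells, beside 18.4% of all genes tested. In the MSC libraries macrophage markers stood above mesenchymal markers. The 15 macrophage and monocyte markers summed to 13800 and 17714 CPM in the PBS cultures, against 1713 and 3525 CPM for the 14 mesenchymal markers, and the stromal marker Lepr had 0 counts there. MSC is therefore used below as the name of the cultures. In these bulk libraries, fewer cells of a type and less RNA per cell cannot be told apart.

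Promoters of 7 of the 10 genes were in the RefSeq table for GRCm38.p6, as windows from 250 bases before to 50 bases after the start site. Tlr4, Tlr7 and Cd14 had no entry. Windows are shown for Tlr2, which had the largest rise with IL-1β in MSC cultures, and for Tlr9, whose IL-1β libraries lay below every PBS library in both sorted populations. Capitals mark matches on either strand to a kappa B pattern (GGG, then any 5 bases, then CC, a loose form of the NF-kappa B site, with overlapping matches merged) or an Ets pattern (GAGGAAGT, the form bound by Spi1), 5′ to 3′ along the gene's strand.
Tlr2, chr3:83841559-83841858, minus strand: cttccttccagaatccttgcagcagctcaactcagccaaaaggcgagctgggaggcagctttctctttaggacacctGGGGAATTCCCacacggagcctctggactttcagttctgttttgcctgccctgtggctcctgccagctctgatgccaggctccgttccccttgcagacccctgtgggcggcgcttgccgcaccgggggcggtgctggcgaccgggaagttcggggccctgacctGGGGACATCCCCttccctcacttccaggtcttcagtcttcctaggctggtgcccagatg
Tlr9, chr9:106222348-106222647, plus strand: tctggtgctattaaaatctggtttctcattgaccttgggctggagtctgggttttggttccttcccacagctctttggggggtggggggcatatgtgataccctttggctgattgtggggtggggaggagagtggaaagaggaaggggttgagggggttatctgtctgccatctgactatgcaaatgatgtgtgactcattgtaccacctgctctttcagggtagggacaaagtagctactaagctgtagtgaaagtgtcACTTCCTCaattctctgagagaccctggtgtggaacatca
The Tlr2 window held kappa B matches in 2 stretches, which began 173 and 9 bases before the start site, and the Tlr9 window held 1 Ets match 11 bases after it. Among the 7 genes, with 9 windows in all, 3 held the kappa B pattern (Tlr2, Tlr3 and Tlr6), 2 the Ets pattern (Tlr1 and Tlr9) and 1, Tlr6, an interferon response pattern (GAAA, any 2 bases, GAAA). The kappa B pattern was present in 50.8% of 32851 promoter windows, the Ets pattern in 3.2% and the interferon pattern in 3.44%, each searched on both strands. The windows of Tlr8 and Tlr13 held none of the 3 patterns. These matches are letters in a window, and binding was not measured.

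Levels per length were higher in the MSC cultures than in the sorted cells. For 9 of the 10 genes no MSC library overlapped a sorted library, and for Tlr9 the lowest MSC library and the highest LSK library under PBS both had 1.44 RPKM. In PBS-treated MSC cultures Cd14 led with 160 ± 23.3 RPKM (SD, n = 2) and Tlr13 followed with 76.1 ± 0.778. Tlr7 (18.5 ± 7.16), Tlr2 (13.5 ± 8.05), Tlr8 (10.8 ± 2.75), Tlr1 (9.40 ± 0.953) and Tlr4 (8.29 ± 2.33 RPKM) came next, with ranges that overlapped from neighbour to neighbour. Tlr6 had 4.09 ± 0.276 RPKM, and Tlr3 (2.6 ± 0.180) and Tlr9 (2.25 ± 1.14) were the lowest and did not separate. The order in the sorted cells was different. In LSK cells under PBS, Tlr2 was the highest with 4.6 ± 1.15 RPKM (n = 3), above Tlr6 (1.42 ± 0.280) and Tlr4 (1.22 ± 0.391), which overlapped. Tlr9 (0.826 ± 0.574) overlapped them, and Tlr7 (0.713 ± 0.201) and Cd14 (0.628 ± 0.314 RPKM) overlapped Tlr9 and Tlr4. The means of Tlr3 (0.0958), Tlr13 (0.0793), Tlr1 (0.0645) and Tlr8 (0.0640 RPKM) were the lowest. In LK cells under PBS, Tlr2 (1.86 ± 0.807) and Cd14 (1.25 ± 0.288 RPKM) overlapped at the top, and Tlr6 had 0.632 ± 0.263, Tlr4 0.467 ± 0.126, Tlr9 0.248 ± 0.0594, Tlr7 0.176 ± 0.0690 and Tlr1 0.175 ± 0.115 RPKM. With IL-1β the order in MSC cultures (n = 2 each) was Cd14 (434 ± 15.1), Tlr13 (99.6 ± 0.887), Tlr2 (87.5 ± 3.85), Tlr7 (50.02 ± 6.06), Tlr8 (33.8 ± 4.79), Tlr1 (21.1 ± 2.03), Tlr4 (16.7 ± 1.58), Tlr9 (7.27 ± 0.747), Tlr3 (6.32 ± 0.0651) and Tlr6 (5.46 ± 0.150 RPKM), and no neighbours overlapped. Tlr2 stood above Tlr7 here, and Tlr9 above Tlr3 and Tlr6. Under the same treatment the highest in LSK cells were Tlr2 (4.17 ± 1.38), Cd14 (1.82 ± 0.510), Tlr4 (1.42 ± 0.423) and Tlr6 (1.15 ± 0.135 RPKM), of which Cd14 overlapped Tlr4 and Tlr4 overlapped Tlr6. In LK cells they were Tlr2 (4.01 ± 1.27), Tlr4 (2.61 ± 0.884), Cd14 (2.0 ± 0.160) and Tlr6 (1.69 ± 0.209 RPKM), where Tlr2 overlapped Tlr4 and Tlr4 overlapped Cd14. Genotype, culture and cell population differ together between MSC and sorted libraries, so these levels were not tested against each other.

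**Figure D1:**
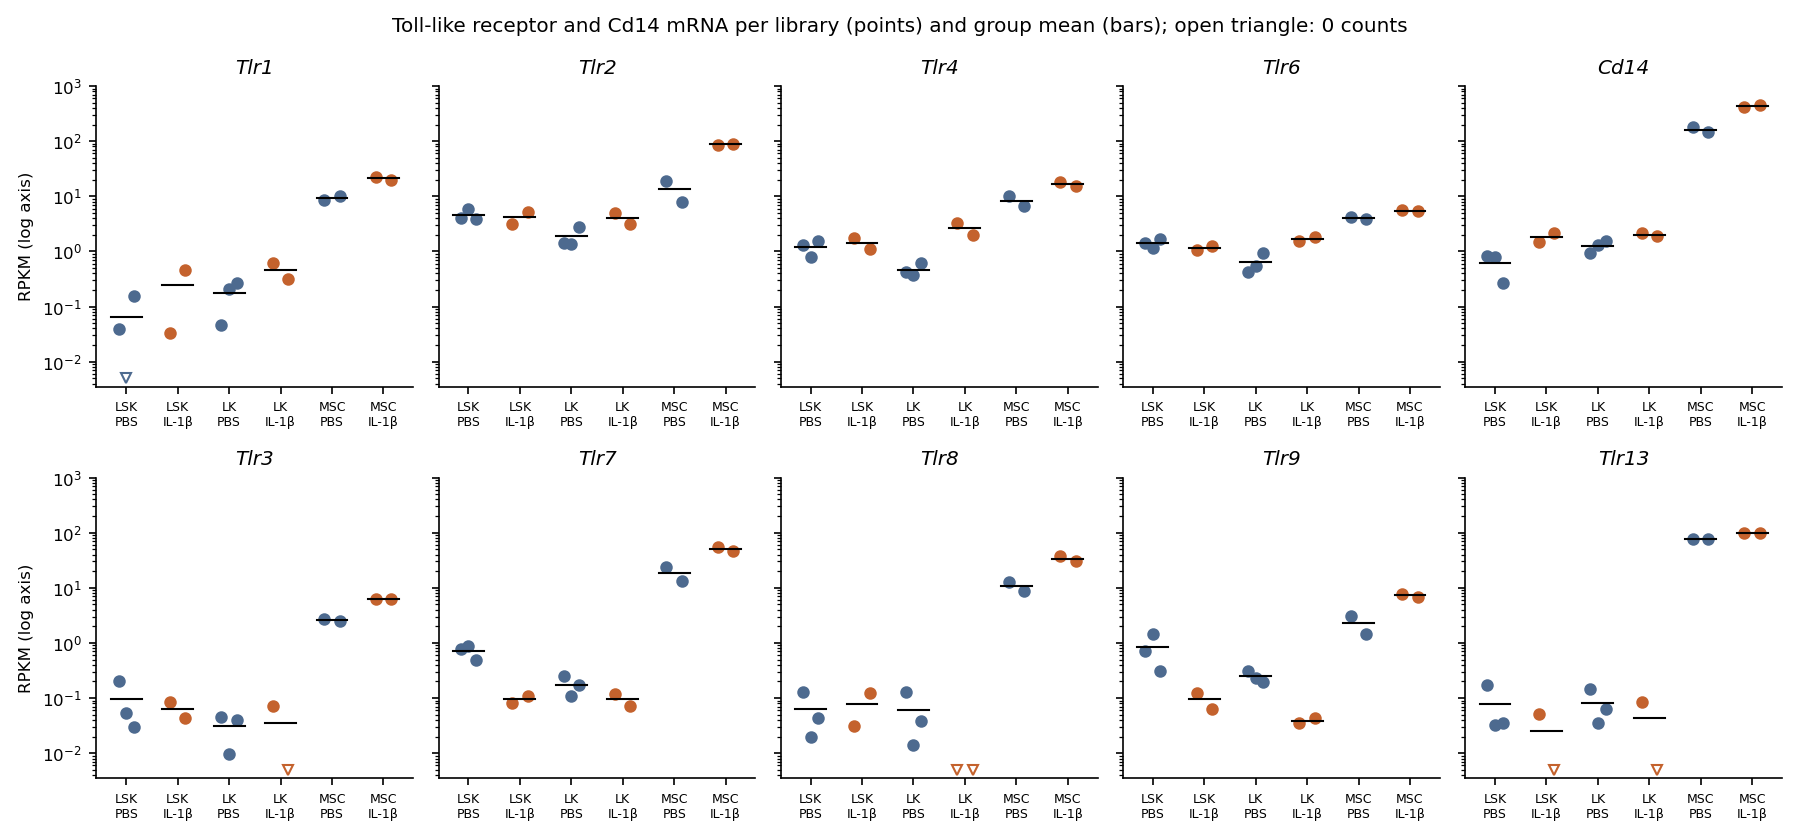
RPKM on a log axis of each of the 10 genes in the 14 libraries (points, blue PBS, orange IL-1β; black bars are group means of 3 or 2 libraries; open triangles mark libraries with 0 counts). Every MSC point lies above every LSK and LK point of the same gene except for Tlr9, whose lowest MSC and highest LSK points coincide at 1.44 RPKM, and in the sorted cells Tlr8, Tlr13, Tlr3 and Tlr1 sit near the lower end of the axis.

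Among the sorted cells under PBS, 3 receptor genes were lower in LK than in LSK cells. Of the 6 members with enough counts to be tested, Tlr2, Tlr4 and Tlr7 were called lower in LK cells and none was called higher, beside 18.4% of all 12737 genes tested that were called lower, 12.8% called higher and 31.2% called in either direction. Tlr2 had 4.06, 5.92 and 3.81 RPKM in the 3 LSK libraries and 1.45, 1.35 and 2.79 RPKM in the 3 LK libraries by replicate number. The LK libraries were all below the LSK libraries, with a log2 fold change of -1.38 ± 0.37 (SE) and an adjusted p of 0.0227 (edgeR). Tlr4 had 1.33, 0.790 and 1.55 RPKM in LSK and 0.421, 0.371 and 0.609 RPKM in LK cells. Again no library overlapped (log2 fold change -1.48 ± 0.44, adjusted p = 0.0312, edgeR). Tlr7, the single-stranded RNA sensor, had 0.762, 0.884 and 0.492 RPKM in LSK and 0.248, 0.111 and 0.169 RPKM in LK cells. Its log2 fold change was -2.10 ± 0.61 with an adjusted p of 0.0289 (edgeR). Tlr6 (-1.25 ± 0.47, adjusted p = 0.0715), Tlr9 (-1.81 ± 0.69, adjusted p = 0.0766) and Cd14 (0.92 ± 0.64, adjusted p = 0.311, all edgeR) did not pass. Tlr7 and Tlr9 passed the filter on low counts through their LSK libraries, and Cd14 through its LK libraries. On RPKM the libraries of Tlr2, Tlr4, Tlr6 and Tlr7 did not overlap in the downward direction and those of Tlr9 met at 0.311 and 0.314, beside 23.5% of all genes tested. The count of members called was 0 without LSK PBS replicate 1, LK PBS replicate 1 or LK PBS replicate 2. Without LSK PBS replicate 3 the call of Tlr4 was also lost and Tlr9 was called lower, so the count stayed at 3. The call of Tlr7 was lost without LK PBS replicate 3 and when genes of low counts were kept. DESeq2 also called Tlr6 and Tlr9 lower and limma-voom Tlr6. Without LSK PBS replicate 2, Tlr2, Tlr4, Tlr6 and Tlr7 were called. The same 3 genes were called with the replicate number as a block.

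In LSK cells the surface receptors Tlr2, Tlr4 and Tlr6 had levels under IL-1β that overlapped those under PBS. Tlr2 had 10.7 and 17.4 CPM with IL-1β against 13 to 19.7 CPM with PBS, and its log2 fold change was -0.15 ± 0.40. Tlr4 had 10.6 and 6.94 CPM against 4.86 to 9.77 CPM (0.21 ± 0.51), and Tlr6 had 4.38 and 5.21 CPM against 4.70 to 7.19 CPM (-0.31 ± 0.56). The direction of both Tlr2 and Tlr4 turned when single libraries were left out. Cd14 was the surface gene whose libraries separated, with counts of 22, 19 and 9 under PBS and 23 and 17 under IL-1β. These are 1.61, 1.49 and 0.526 CPM against 2.80 and 4.21 CPM. Both IL-1β libraries lay above the 3 PBS libraries, as they did for 18.2% of all genes tested, yet the log2 fold change of 1.53 ± 0.92 had an adjusted p of 0.397 (edgeR).

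The endosomal receptors Tlr7 and Tlr9 had few counts in LSK cells of IL-1β-treated mice, below each PBS library. Tlr7 had 47, 51 and 39 counts in the PBS libraries and 3 and 2 counts in the IL-1β libraries, where 26.6 and 13.1 counts would be reached at the mean PBS level. Tlr9 had 38, 71 and 21 counts with PBS and 4 and 1 with IL-1β, where 26.2 and 12.9 would be reached. No IL-1β library overlapped a PBS library for either gene, beside 21.4% of all genes tested that did not overlap in the downward direction. Both genes passed the filter on low counts through their PBS libraries. Over pooled counts, the rate of Tlr7 was 7.71-fold lower with IL-1β (95% counting interval 3.22 to 24.1) and that of Tlr9 7.32-fold lower (3.06 to 22.9). The intervals cover counting error in these libraries and not the spread between them. With that spread, the log2 fold change of Tlr7 was -2.91 ± 1.01 (unadjusted p = 0.0168, adjusted p = 0.186) and that of Tlr9 -3.00 ± 1.15 (unadjusted p = 0.0264, adjusted p = 0.213, edgeR). Tlr1 (0 to 10 counts), Tlr3 (1 to 16), Tlr8 (1 to 7) and Tlr13 (0 to 11 counts per library) were too sparse in LSK cells to be tested, and a difference in them was not detectable at this depth. Without LSK PBS replicate 2, the library that stood apart, Tlr7 was at -2.72 (adjusted p = 0.106) and Tlr9 at -2.30 (adjusted p = 0.189, edgeR), while 480 genes in all were called in place of 83.

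In sum over LSK cells, 0 of the 6 members tested were called with IL-1β, beside 0.632% of all 13132 genes. At an unadjusted p under 0.05 the count was 2 (Tlr7 and Tlr9), beside 18.5% of all genes tested, DESeq2 and limma-voom called 0, and a joint fit with the LK libraries called Tlr7 lower (adjusted p = 0.0483; the adjusted p ranged from 0.0483 to 0.631 over the alternatives). Markers of plasmacytoid dendritic cells, a cell type known for Tlr7 and Tlr9, also had a lower sum. The 6 markers of that list summed to 262 to 387 CPM with PBS and 151 and 190 CPM with IL-1β. Irf8, a transcription factor of dendritic and monocytic cells, was called lower (log2 fold change -2.48 ± 0.35, adjusted p = 0.0207, edgeR), whereas Tcf4 (-0.92 ± 0.24, adjusted p = 0.109) and Bst2 (0.54 ± 0.27, adjusted p = 0.318, edgeR) did not pass. Siglech (0 to 16 counts with PBS), Spib (0 to 14) and Ccr9 (1 to 8) were too sparse to be tested and had 0 counts in both IL-1β libraries. The 6 B cell markers, of another cell type that carries Tlr7 and Tlr9, summed to 6.11 to 22.3 CPM with PBS and 11.1 and 17.8 CPM with IL-1β. The stem and progenitor markers Flt3 (-2.42 ± 0.35) and Hlf (-2.08 ± 0.31) were called lower too, and the 6 genes of that list summed to 1425 to 1845 CPM with PBS and 824 and 936 CPM with IL-1β. The 15 macrophage and monocyte markers summed to 190 to 239 CPM against 161 and 219 CPM, with 0 of 11 tested called. Tlr7 lies on the X chromosome, and Xist, the transcript of the silenced X, had 9502, 12564 and 17985 counts with PBS and 3371 and 563 with IL-1β in LSK cells, beside at most 3 summed counts of 4 Y-linked genes in any LSK library. These are raw counts, from libraries of 12172400, 13241793 and 16271408 counted read pairs with PBS and 8641124 and 4393233 with IL-1β. The part of these shifts in the low Tlr7 and Tlr9 counts was not tested.

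**Figure D2:**
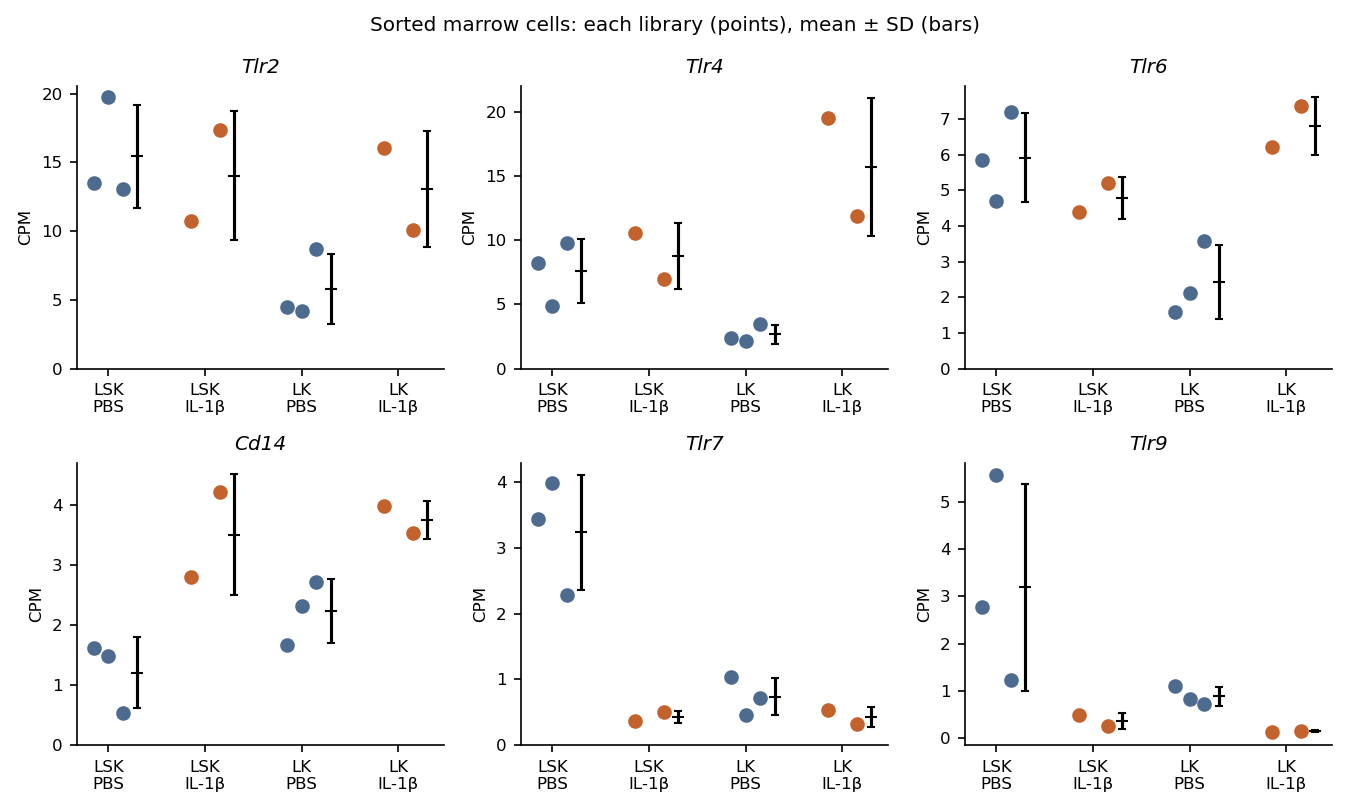
CPM of 6 genes in each LSK and LK library (points, blue PBS with 3 libraries, orange IL-1β with 2; black bars are mean ± SD). Tlr4 rises from 2.11 to 3.51 CPM in LK cells under PBS to 11.9 and 19.5 CPM under IL-1β, while Tlr7 in LSK cells lies at 2.28 to 3.99 CPM under PBS and 0.365 and 0.496 CPM under IL-1β.

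In LK cells Tlr4 mRNA was increased with IL-1β. Tlr4 had 30, 41 and 49 counts in the PBS libraries and 147 and 74 counts in the smaller IL-1β libraries, which is 2.38, 2.11 and 3.51 CPM against 19.5 and 11.9 CPM. Both IL-1β libraries lay far above the 3 PBS libraries. The log2 fold change was 2.56 ± 0.34 with an adjusted p of 0.00458 (edgeR), and over the alternatives it ranged from 2.14 to 2.88 with adjusted p from 2.75e-12 to 0.104. The call was lost without LK IL-1β replicate 1, when 66 genes in all were called in place of 1199. Tlr4 was the 1 member called of 6 tested, beside 6.77% of 12835 genes called higher and 9.34% called in either direction.

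Tlr2, its partners Tlr1 and Tlr6, and Cd14 also lay higher in the LK IL-1β libraries, without passing the test. Tlr2 had 4.45, 4.16 and 8.73 CPM with PBS and 16.0 and 10.1 CPM with IL-1β (log2 fold change 1.18 ± 0.38, adjusted p = 0.0957, edgeR). Tlr6 had 1.59, 2.11 and 3.58 CPM against 6.23 and 7.38 CPM (1.48 ± 0.41, adjusted p = 0.0578, edgeR). Both genes were called together with Tlr4 by DESeq2, without the filter on low counts and without LK PBS replicate 3, which makes 3 members in each case. Tlr1 (1.46 ± 0.77, adjusted p = 0.285) and Cd14 (0.74 ± 0.41, adjusted p = 0.309, edgeR) also had both IL-1β libraries above the PBS libraries, at 1.12 and 2.25 CPM against at most 0.930 CPM for Tlr1 and at 3.53 and 3.97 CPM against at most 2.72 CPM for Cd14. Thus 5 of the 6 members tested did not overlap in the upward direction, beside 23.5% of all genes tested. Of these, Tlr1 passed the filter on low counts through its IL-1β libraries, so its separation adds little to that count. Tlr1 and Tlr6 are neighbouring paralogs, and read pairs that map to both are not counted, so their levels are less certain.

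Among the endosomal receptors of LK cells, Tlr9 had 14, 16 and 10 counts with PBS and 1 count in each IL-1β library (such separation downward was seen for 22.2% of all genes tested), where 6.67 and 5.51 would be reached at the mean PBS level. As in LSK cells, Tlr9 passed the filter on low counts through its PBS libraries. Its pooled rate was 5.99-fold lower (95% counting interval 1.55 to 51.2), and the test gave a log2 fold change of -2.51 ± 0.92 with an adjusted p of 0.131 (edgeR). Tlr7 had 13, 9 and 10 counts against 4 and 2, which overlap after scaling (0.463 to 1.03 CPM against 0.530 and 0.321 CPM). Tlr3, Tlr8 and Tlr13 had at most 8 counts in any LK library. Tlr8 had 0 counts in both IL-1β libraries, where 1.69 and 1.39 would be reached, so a difference was not detectable at this depth.

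Markers of other cell types moved in the same LK libraries, where 6.77% of all genes tested were called higher and 2.57% lower. The 12 neutrophil markers summed to 4427 to 9597 CPM with PBS and 18066 and 21008 CPM with IL-1β, led by Mpo, and 5 of the 10 tested were called higher (Cebpe, Ctsg, Elane, Mpo and Prtn3), while Ly6g had 0 counts in every library. Of the macrophage and monocyte markers, Csf1r (log2 fold change -2.49 ± 0.40) and Cx3cr1 (-1.13 ± 0.26) were called lower and none of the 11 tested was called higher, and the list summed to 206 to 346 CPM with PBS and 211 and 233 CPM with IL-1β. Of the erythroid markers 5 of 6 were called lower, and Irf8 was called lower (-2.59 ± 0.38, adjusted p = 0.0122, edgeR). In LSK cells the neutrophil list summed to 2205 to 3194 CPM with PBS and 9943 and 11636 CPM with IL-1β. Elane, Mpo and Prtn3 were called higher there, beside 0.632% of all genes called in either direction. The part of these shifts in the Tlr4 rise of LK cells was not tested.

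The responses of LSK and LK cells were compared with an interaction term over the 10 sorted libraries. The change of Tlr4 was larger in LK cells by 2.38 ± 0.61 on the log2 scale, and those of Tlr6 and Tlr2 by 1.83 ± 0.66 and 1.36 ± 0.58. None passed the adjustment (adjusted p = 0.159, 0.260 and 0.321, edgeR), so a difference between the populations was not established. The interaction of Tlr7 was 2.20 ± 1.15, and those of Tlr9 (0.52 ± 1.64), Cd14 (-0.74 ± 0.90) and Tlr1 (-0.20 ± 1.71) were smaller than or similar to their errors. In all, 0 of 7 members tested were called, beside 0.0289% of 13839 genes. At an unadjusted p under 0.05 there were 3 (Tlr2, Tlr4 and Tlr6), beside 14.2% of all genes tested, limma-voom called 0, and DESeq2, a fit without the low-count filter and a fit without LSK PBS replicate 2 (2.62, adjusted p = 0.0393) each called Tlr4. The adjusted p of Tlr4 ranged from 0.0212 to 0.806 over the alternatives.

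**Figure D3:**
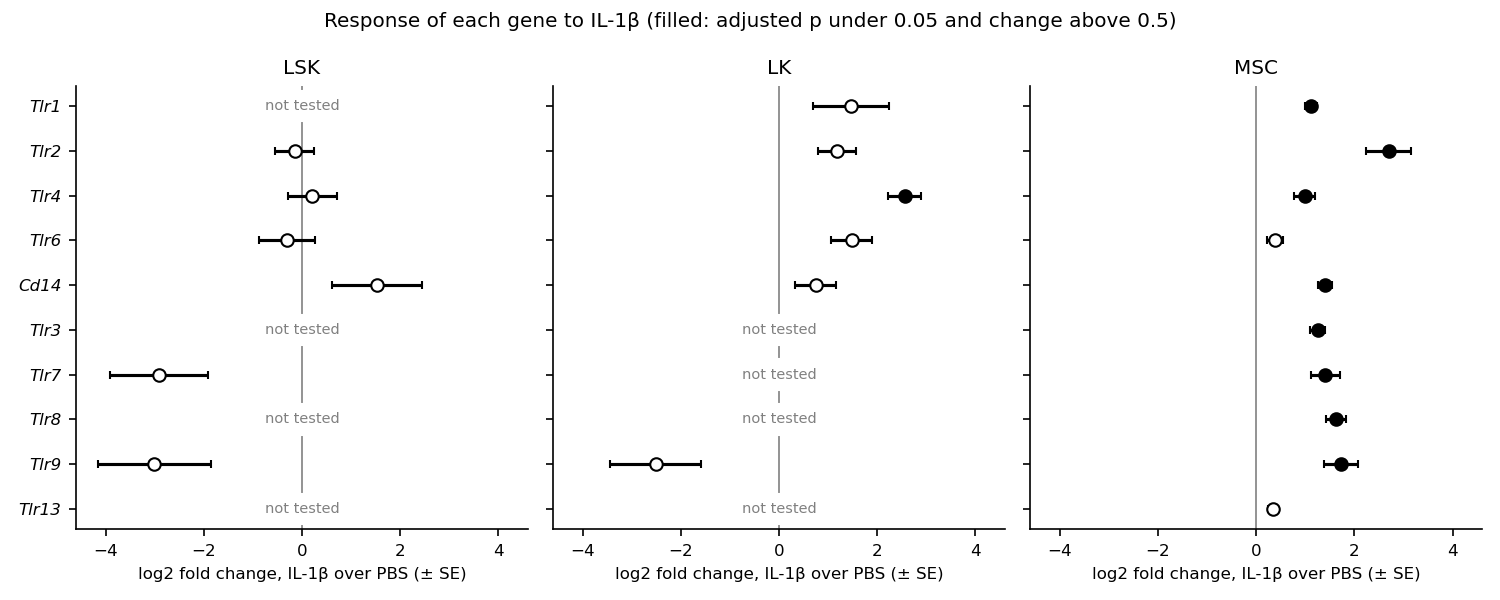
Log2 fold change of IL-1β over PBS with its standard error for each gene in LSK, LK and MSC libraries (edgeR; filled points were called, open points were tested and not called). The 10 MSC points are all above 0, from 0.35 (Tlr13) to 2.70 (Tlr2), whereas Tlr7 in LSK cells and Tlr9 in LSK and LK cells lie between -2.51 and -3.00.

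In MSC cultures the mRNA of surface and of endosomal receptors was increased with IL-1β. Of the 10 members, each of which was tested, 8 were called higher and none lower, beside 7.14% of 13239 genes called higher and 11.4% called in either direction. Tlr2 rose most, from 48.9 and 19.4 CPM with PBS to 203 and 227 CPM with IL-1β. The PBS libraries differed from each other by more than the IL-1β libraries did, and the log2 fold change was 2.70 ± 0.46 (adjusted p = 0.0332, edgeR), a call that was lost when genes of low counts were kept in the test. Its partner Tlr1 rose from 24.7 and 27.8 CPM to 59.9 and 55.1 CPM (1.13 ± 0.12, adjusted p = 0.00615, edgeR). Tlr6, the other partner, had 13.5 and 12 CPM against 16.5 and 16.7 CPM and did not pass (0.39 ± 0.16, adjusted p = 0.169, edgeR).

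The lipopolysaccharide receptor and its co-receptor were both called. Tlr4 rose from 46.7 and 30.4 CPM to 78.3 and 72.1 CPM (log2 fold change 0.99 ± 0.21, adjusted p = 0.0370, edgeR). Cd14, the most abundant member, rose from 259 and 205 CPM to 581 and 643 CPM (1.40 ± 0.15, adjusted p = 0.00604, edgeR). Ly96, the subunit that completes the Tlr4 receptor, had 10.7 and 10.8 CPM against 15.6 and 13.5 CPM and did not pass (0.44 ± 0.17, adjusted p = 0.150, edgeR).

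Of the endosomal receptors, 4 of 5 were called higher in MSC cultures. Tlr9 rose from 9.0 and 4.14 CPM to 21.5 and 19.6 CPM (log2 fold change 1.73 ± 0.35, adjusted p = 0.0349, edgeR), whereas its IL-1β libraries lay below PBS in the sorted cells. Tlr8 rose from 38.5 and 26.1 CPM to 106 and 91.2 CPM (1.63 ± 0.20, adjusted p = 0.00975, edgeR). Tlr7 rose from 81.2 and 45.1 CPM to 176 and 156 CPM (1.41 ± 0.29, adjusted p = 0.0412, edgeR). For these 3 genes the IL-1β libraries lay close together and well above both PBS libraries. Tlr3, which signals through Ticam1, rose from 12 and 10.6 CPM to 26.3 and 27.3 CPM (1.25 ± 0.15, adjusted p = 0.00842, edgeR). Tlr13 had 275 and 272 CPM against 338 and 360 CPM and did not pass (0.35 ± 0.10, adjusted p = 0.0812, edgeR). Each of the 10 genes had both IL-1β libraries above both PBS libraries, as did 31.3% of all genes tested. Without either of the IL-1β libraries 0 members were called, at 38 genes called in all without replicate 1 and 82 without replicate 2, while without either PBS library the count stayed at 8. Tlr7, Tlr8 and Tlr13 are X-linked, and sex-linked transcripts varied between the cultures. Xist had 325 and 0 counts with PBS and 2103 and 535 with IL-1β. The 4 Y-linked genes summed to 612 and 2417 counts with PBS and 4009 and 1513 with IL-1β. These are raw counts, from libraries of 5834909 and 13155033 counted read pairs with PBS and 30871055 and 11681794 with IL-1β. PBS replicate 3 alone lacked Xist. The part of this variation was not tested.

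Macrophage markers were increased in the same MSC cultures. Of the 14 tested, 7 were called higher (Adgre1, C1qa, Csf1r, Fcgr1, Lyz2, Mertk and Mrc1) and none lower, beside 7.14% of all genes called higher. The median log2 fold change of the 14 was 0.60, against a median of 1.33 for the 10 members and 0.0044 for all genes tested. The list summed to 34420 and 35328 CPM with IL-1β, and Lyz2, the lysozyme gene of myeloid cells, supplied 40.3% and 34.8% of the sum with PBS and 57.7% and 58.9% with IL-1β. The mesenchymal markers summed to 1713 and 3525 CPM with PBS and 4339 and 4835 CPM with IL-1β, and of the 12 tested 1, Dcn, was called higher. Of the neutrophil markers 2 of 3 tested were called higher, Camp (log2 fold change 5.45 ± 0.42), with 1 and 2 counts under PBS and 86 and 207 under IL-1β, and Mmp8 (2.99 ± 0.29). Camp passed the filter on low counts through its IL-1β libraries. The neutrophil list summed to 19.5 and 72.1 CPM with PBS and 75.3 and 70.0 CPM with IL-1β, most of it Mmp9, while Ly6g and Ngp had 0 counts. On the means of the 2 libraries the macrophage sum was 2.21-fold higher with IL-1β and 1.48-fold higher without Lyz2, and Tlr2 was 6.30-fold, Cd14 2.64-fold and Tlr13 1.28-fold higher.

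**Figure D4:**
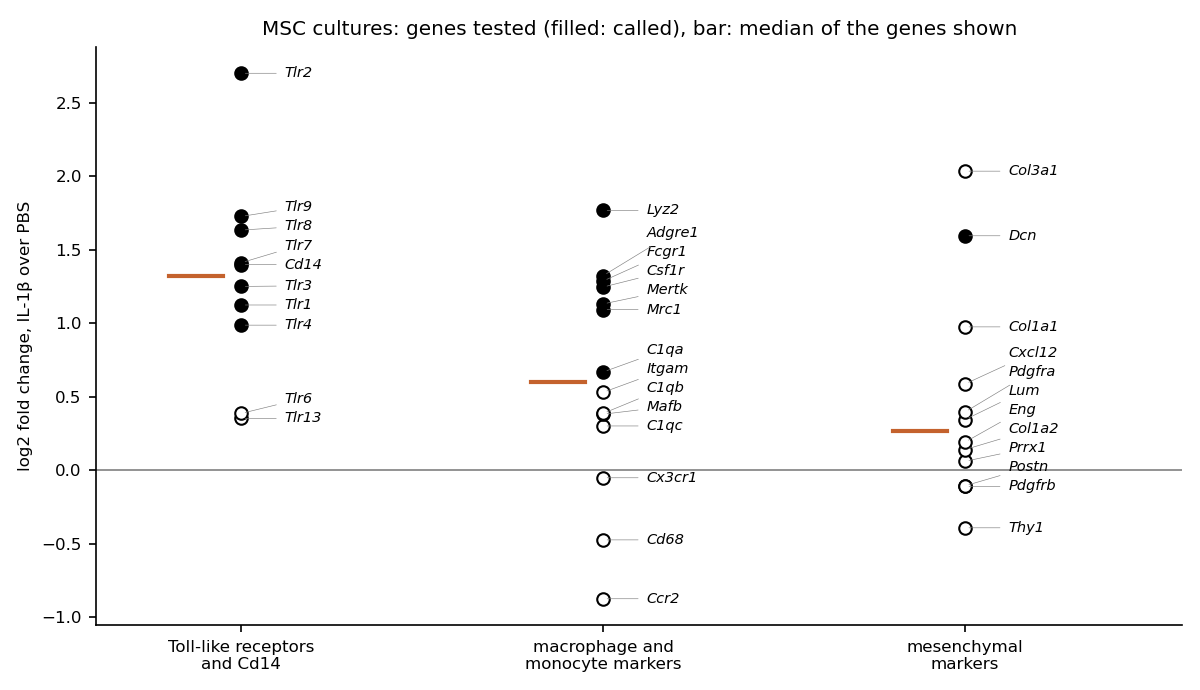
Log2 fold change of IL-1β over PBS in MSC cultures for the 10 members, the 14 macrophage and monocyte markers and the 12 mesenchymal markers that were tested (filled points were called; orange bars are the medians of the genes shown, 1.33, 0.60 and 0.27). Tlr2 at 2.70 lies above every gene of the marker lists.

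Set against macrophage mRNA, the members of MSC cultures fell into 3 patterns. As a percentage of the sum of the 15 markers, Tlr2 was 0.276 and 0.140 in the PBS cultures against 0.588 and 0.643 in the IL-1β cultures. Cd14 was 1.46 and 1.49 against 1.69 and 1.82, and Tlr8 and Tlr9 also had both IL-1β libraries above both PBS libraries. Tlr6 (0.0762 and 0.0868 against 0.0478 and 0.0472) and Tlr13 (1.55 and 1.97 against 0.982 and 1.02) were lower with IL-1β on this measure, and Tlr1, Tlr3, Tlr4 and Tlr7 overlapped. With Lyz2 left out of the sum, a measure added after the values were seen, 8 members were above both PBS libraries and Tlr6 and Tlr13 were again below. The share of all genes that separate on these ratios was not computed. On CPM alone, 31.3% of all genes tested had both IL-1β libraries above both PBS libraries. How much of each rise came with more macrophage mRNA was not tested.

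**Figure D5:**
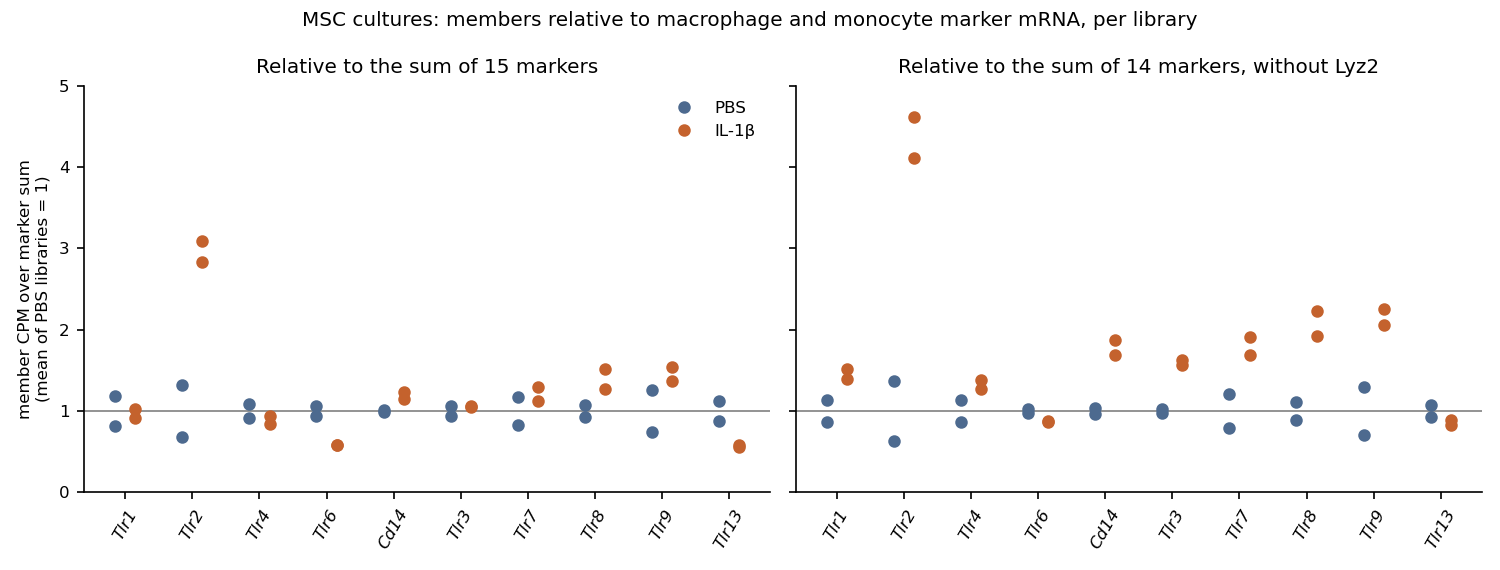
CPM of each member divided by the summed CPM of macrophage and monocyte markers in each MSC library, scaled so that the mean of the 2 PBS libraries is 1 (left with all 15 markers, right without Lyz2). Tlr2 stands highest with IL-1β in both panels, Tlr6 and Tlr13 lie below 1 with IL-1β in both, and Tlr1, Tlr3, Tlr4 and Tlr7 overlap PBS on the left and lie above it on the right.

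The Toll-like receptors that are not members were sparse or restricted to the sorted cells. Tlr12, which with Tlr11 senses profilin of parasites, had 7.90, 20.8 and 8.13 CPM in LSK cells under PBS and 17.5 and 17.6 CPM under IL-1β. Under PBS it was lower in LK than in LSK cells, at 0.380 to 0.695 against 2.25 to 5.90 RPKM (log2 fold change -2.88 ± 0.52, adjusted p = 0.00395, edgeR), and had 0 counts in all 4 MSC libraries. With IL-1β its log2 fold change was 0.52 ± 0.48 in LSK and 0.49 ± 0.54 in LK cells and was not called. Tlr5, the flagellin receptor, had at most 3 counts in any sorted library and 0, 4, 16 and 6 counts in the MSC libraries (PBS replicates 2 and 3, then IL-1β replicates 1 and 2), and Tlr11 had at most 3 counts in any library.

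Receptor partners and trafficking proteins moved in different directions. In MSC cultures 5 of 14 were called higher and 1 lower, beside 7.14% and 4.31% of all genes tested. Lbp, which delivers lipopolysaccharide to Cd14, rose by a log2 fold change of 2.66 ± 0.37 from 1.28 and 2.83 CPM. The endosomal protease Ctsl (1.06 ± 0.13), Ly86, the partner of the Tlr4 homolog Cd180 (0.76 ± 0.18), and Lgmn (0.57 ± 0.13) rose less. Unc93b1 rose from 572 and 526 CPM to 748 and 808 CPM (0.50 ± 0.11, adjusted p = 0.0436, edgeR). Cd36, a co-receptor of the Tlr2 and Tlr6 pair, fell from 1280 and 1360 CPM to 586 and 607 CPM (-1.15 ± 0.11, adjusted p = 0.00467, edgeR).

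In LK cells 3 of the 13 partners tested were called higher with IL-1β and 2 lower, beside 6.77% and 2.57% of all genes tested. Lbp rose (log2 fold change 1.69 ± 0.33), as did Hsp90b1, the chaperone that folds Toll-like receptors (1.17 ± 0.12), and its co-chaperone Cnpy3 (0.59 ± 0.15). Ly86 (-3.04 ± 0.52) and the endosomal protease Ctss (-2.49 ± 0.31) fell. Unc93b1 stayed between 47.5 and 83.6 CPM in LK libraries of either treatment (0.00 ± 0.23), Cd36 had 3.65 to 5.09 CPM against 1.72 and 1.93 CPM (-1.31 ± 0.39, adjusted p = 0.0701, edgeR), and Ly96, with 3 to 12 counts per library, was not tested. In LSK cells 0 of 13 were called by edgeR and limma-voom and 2 by DESeq2, with 6 at an unadjusted p under 0.05 (18.5% of all genes). Between the populations under PBS, 1 of 14 partners was called higher in LK cells and 2 lower, beside 12.8% and 18.4% of all genes tested. Cd36 was higher (2.88 ± 0.52), and Unc93b1 (-0.70 ± 0.22) and Ctss (-0.93 ± 0.24) were lower. Cd36 passed the filter on low counts through its LK libraries.

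Of 22 adaptors and kinases, each of which was tested, 4 were called higher in LK cells, 3 in MSC cultures and 0 in LSK cells with IL-1β, and none was called lower. The shares of all genes called higher were 6.77% in LK cells and 7.14% in MSC cultures. Myd88 had 50.4, 53.0 and 55.5 CPM in LK cells under PBS and 78.3 and 71.5 CPM under IL-1β (log2 fold change 0.50 ± 0.11, adjusted p = 0.0270, edgeR), just past the fold threshold. In MSC cultures it had 79.4 and 72.5 CPM against 106 and 108 CPM (0.50 ± 0.10, adjusted p = 0.0346, edgeR), just short of that threshold and therefore not called. In LSK cells it had 55.0 to 56.9 CPM against 71.9 and 72.1 CPM (0.36 ± 0.23, adjusted p = 0.428, edgeR), and in that population 4 of the 22 had an unadjusted p under 0.05, about the 18.5% of all genes, and DESeq2 and limma-voom called 0. The other calls in LK cells were Pik3ap1, which links Toll-like receptors to PI3 kinase (1.87 ± 0.23), Tirap, the bridging adaptor of Tlr2 and Tlr4 (0.73 ± 0.17), and Traf3 (0.62 ± 0.11). Those in MSC cultures were Irf7, the interferon factor downstream of Tlr7 and Tlr9 (4.41 ± 0.33), Ikbke (1.62 ± 0.12) and the ubiquitin ligase Peli1 (0.61 ± 0.13). Under PBS, 2 of the 22 were called lower in LK than in LSK cells, Peli1 (-1.20 ± 0.17) and Pik3ap1 (-0.87 ± 0.27), and 0 higher. The shares of all genes tested were 18.4% and 12.8%.

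Inhibitors of the route were called higher in MSC cultures for 4 of 11 tested, beside 7.14% of all genes, and in LK cells for 1 of 11, close to the 6.77% of all genes. Irak3, a decoy kinase that restrains Myd88 signaling, rose in both, by 1.40 ± 0.18 in MSC cultures and 1.19 ± 0.21 in LK cells on the log2 scale. Zc3h12a, an RNase that degrades inflammatory mRNA (1.61 ± 0.12), and the NF-kappa B inhibitors Nfkbia (1.03 ± 0.16) and Nfkbie (0.86 ± 0.19) rose in MSC cultures. In LSK cells 0 of 12 were called by edgeR and limma-voom and 2 by DESeq2, with 4 at an unadjusted p under 0.05, beside 18.5% of all genes. Under PBS 6 of 12 inhibitors were called lower in LK than in LSK cells, beside 18.4% of all genes. They were led by Tnip3 (-4.73 ± 0.63), Nfkbie (-2.58 ± 0.39), Socs1 (-1.72 ± 0.54) and Sigirr (-1.49 ± 0.29), and Il1rl1, the IL-33 receptor, was higher (2.16 ± 0.22). Tnip3 had too few counts to be tested with IL-1β in LK cells and passed the filter here through its LSK libraries. Where LK IL-1β replicate 1 was left out, 0 adaptors, 0 inhibitors and 1 partner were called in LK cells, and without MSC IL-1β replicate 1 or 2 at most 1 gene of these lists was called in MSC cultures.

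Of the endogenous ligands of Tlr2 and Tlr4, 3 of 5 tested were called higher in LK cells, 2 of 7 higher and 1 lower in MSC cultures, and 1 of 6 lower in LSK cells. The shares of all genes called higher were 6.77% in LK cells and 7.14% in MSC cultures. In MSC cultures 4.31% of all genes were called lower, and in LSK cells 0.632% were called in either direction. Saa3, an acute-phase protein, rose from 2.33 and 1.36 CPM to 1603 and 1955 CPM in MSC cultures (log2 fold change 10.02 ± 0.28, adjusted p = 0.00021 by edgeR) and by 6.21 ± 0.38 in LK cells. The alarmins S100a8 (5.61 ± 0.28) and S100a9 (5.97 ± 0.96) rose in LK cells, and in LSK cells S100a8 (4.0 ± 0.85, adjusted p = 0.0720), S100a9 (4.41 ± 1.02, adjusted p = 0.0839) and Saa3 (4.37 ± 0.84, adjusted p = 0.0570, edgeR) did not pass. S100a9 and Saa3 had too few counts to be tested between LK and LSK cells under PBS. In the sorted cells these 2 genes passed the filter on low counts only where IL-1β libraries were included. In LSK cells DESeq2 called 4 ligands higher and 1 lower, and limma-voom 0. In MSC cultures S100a9 had 0 counts in each library, the matrix proteoglycan Vcan rose (1.76 ± 0.15) and Hmgb1 fell (-0.57 ± 0.11). Bgn, another matrix proteoglycan, had 80 to 132 counts per LSK library with PBS and 1 count in each with IL-1β. Its pooled rate was 46.3-fold lower (95% counting interval 12.7 to 384), and it was the 1 ligand gene called in LSK cells (adjusted p = 0.0324, edgeR). It passed the filter on low counts through its PBS libraries, and 0 ligands were called lower without LSK PBS replicate 1 or either IL-1β library.

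The genes whose log2 CPM ran most like that of 3 members over the 14 libraries were named as a description, since the difference between MSC and sorted libraries enters every such correlation. For Tlr2 they were Ctsc (Pearson r = 0.974), Oas1g, Glb1, Fundc1 and Cp (r = 0.960). For Tlr4 they were Nfam1 (r = 0.987), Pde8a, Ncf4, Pik3ap1 and Itpripl2 (r = 0.973). For Cd14 they were Ctsl (r = 0.993), Rragc, C1s1, Stab1 and Ctsd (r = 0.986), out of 15393 genes compared.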

How the data were processed

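Read pairs per gene were counted in 14 RNA-seq libraries (rRNA depletion, NEBNext Ultra II). Per the file headers and the submitters' processing notes, the authors trimmed reads with fastp 0.20.0, aligned them with HISAT2 2.0.1 to GRCm38, sorted them with SAMtools 1.10 and deposited raw counts per gene from featureCounts 2.0.2 (reverse-stranded read pairs, Ensembl genes). Pairs that match more than 1 place or gene are not counted at its default settings. The methods also name GenomicAlignments and DESeq2. One further MSC library named in a file header is not analysed here.

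Here, gene symbols were matched for 55141 of 55487 identifiers. Counts were tested within each population with edgeR 4.0.16 under R 4.3.3 (genes kept by filterByExpr, TMM factors, estimateDisp, robust glmQLFit, glmQLFTest; SE as log2 fold change over the root of F; prior count 2), and LSK against LK cells in 1 interaction model. The test was tried on simulated counts first. Genes at 3 counts or fewer in each library of a group count as at the floor, and 95% counting intervals of ratios are conditional binomial. PCR copies are not independent molecules, so intervals and floors cover counting error alone. The 10 members, the pathway and marker lists and the thresholds were chosen with earlier results of these data known. Pathway genes named are, per list and comparison, up to 4 called with the largest change, plus Myd88, Ly96, Cd36, Unc93b1, Tlr5, Tlr11 and Tlr12. Xist and Y-linked genes were added after values were seen. Likeness is Pearson's r of log2 CPM over genes that passed the filter. Replicate numbers come from the labels. Between LSK and LK cells, libraries of the same number deviated from their group means together (r = 0.211, 0.128 and 0.472 with PBS, 0.100 with IL-1β). Mismatched PBS numbers gave r from -0.381 to 0.162. LSK PBS replicate 2 was closer to LK PBS replicate 1 (0.162) than to its own number. The mismatched IL-1β value of -0.100 is fixed by the matched one. The numbers were therefore taken as a possible pairing of these populations, used in alternatives and not in the main tests. PBS and IL-1β libraries share a number only. Alternatives were DESeq2 1.42.0 (its test and its size factors), limma-voom 3.58.1, scaling by upper quartiles, genes of low counts kept, at least 10 counts in 2 libraries, a block for the replicate number, 1 fit over both sorted populations and each library left out. Promoters are RefSeq's for GRCm38.p6. Figures were drawn with matplotlib 3.10.9.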

Additional observations from a re-analysis of the deposited data

Results flagged for a closer look

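Tlr7 was flagged because its IL-1β libraries all lay below PBS in LSK cells and above PBS in MSC cultures, and Tlr9 because its IL-1β libraries lay below PBS in both LSK and LK cells and above PBS in MSC cultures. The pooled rate of Tlr7 with IL-1β was 0.130 times that with PBS in LSK cells and 3.02 times in MSC cultures. For Tlr9 the ratio was 0.137 in LSK cells, 0.167 in LK cells and 3.71 in MSC cultures. The difference between the populations was not tested. The sorted cells came from mice treated for 16 weeks and carried Jak2V617F, whereas the cultures were wild-type and exposed for 72 h, so population, genotype and exposure cannot be told apart. No group had the 4 libraries that a test of single values needs.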

How the results depend on the processing

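The number of members called with IL-1β in LSK cells was 0 in each alternative except the joint fit of LSK and LK libraries, which called 1. In LK cells it was 1, but 3 with DESeq2, without the filter on low counts and with the replicate number as a block, and 0 to 3 with single libraries left out. In MSC cultures 8 became 7 without the filter and 0 to 8 with single libraries left out. Between LK and LSK cells under PBS 3 became 5 with DESeq2, 4 with limma-voom, 2 without the filter and 0 to 4 with single libraries left out. The interaction called 0, and 1 with DESeq2 or without the filter and 0 to 1 with single libraries left out. The cause of these changes was not tested. The block changed no other count of members, and same-numbered PBS and IL-1β libraries of LK cells share only a number. Of the fold changes recomputed, 401 kept direction and side of the threshold, 30 lost a call, 17 gained one and 9 turned direction. Those 9 were Tlr2 in LSK cells without PBS replicate 2 (0.08) or IL-1β replicate 1 (0.17), Tlr4 in LSK cells without IL-1β replicate 1 (-0.14), the interaction of Tlr9 without LSK PBS replicate 2 (-0.14), and that of Tlr1 with limma-voom (0.28) or without LSK PBS replicate 2 (0.40), LSK IL-1β replicate 2 (2.50), LK PBS replicate 3 (0.22) or LK IL-1β replicate 2 (0.14). With single libraries left out these 4 values ranged from -0.50 to 0.17, -0.14 to 0.50, -0.14 to 1.09 and -1.78 to 2.50 (the interaction of Tlr9 before that of Tlr1).

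Over all genes, the count called ranged over the alternatives from 3 to 1228 in LSK cells (83 as reported), 66 to 2409 in LK cells (1199), 38 to 3819 in MSC cultures (1515), 2145 to 4965 between LK and LSK cells (3980) and 0 to 398 for the interaction (4; 24 with same-numbered LSK and LK libraries as a block within treatment, added after seeing the data, which called 0 members). In MSC cultures upper-quartile factors gave 817 genes higher and 831 lower in place of 945 and 570, and 8 members were called higher with either. No paired analysis of MSC cultures was possible because their treatments share 1 replicate number. Same-numbered PBS and IL-1β libraries correlated at 0.126 and -0.035 in LSK and -0.102 and 0.033 in LK cells. Depth limits the sparsest receptors of sorted cells, where Tlr1, Tlr3, Tlr8 and Tlr13 stayed at 17 counts or fewer per library.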
